A study of Homo sapiens with 18 samples.

Results

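The genes described here are 9 long noncoding RNAs (lncRNAs) with known links to cell stress: NEAT1, MALAT1, PVT1, GAS5, SNHG1, MIR22HG, MIR205HG, LINC-PINT and TP53TG1. They were taken by gene symbol, and each of the 9 symbols was found once among the 40916 symbols of every count table. The 18 libraries came from MCF10A, a non-tumorigenic human mammary epithelial line that here carried the nuclear marker H2B-GFP, from an unlabelled HCT116 colorectal carcinoma line described as p53-null, and from cultures started as 50% of each line. Each of the 3 kinds of culture was either not irradiated (NIR) or given 10 Gy (IR), which made 6 groups of 3 biological replicates. The sample titles give day 2 and the series text gives 72 h after irradiation as the harvest time, so the time is not settled here. The lines were grown in different media: MCF10A in F12:DMEM with horse serum, EGF, hydrocortisone, cholera toxin and insulin, and HCT116 in McCoy's 5A with fetal bovine serum. The line, its p53 status, the H2B-GFP marker and the medium therefore cannot be told apart in any comparison of HCT116 with MCF10A. For cultures of both lines the sources used here name no medium. A difference of these cultures from either line alone therefore cannot be assigned to the other line's presence rather than to medium. Levels are given as counts per 1000000 counts of the library (CPM), which are not divided by gene length, so levels are compared between groups for one gene and not between genes.

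Long noncoding RNAs act through the RNA itself, through the act of transcription, or as carriers of smaller RNAs released during splicing or processing. The long isoform of NEAT1 is the scaffold of paraspeckles, nuclear bodies that assemble on it and hold RNA-binding proteins. Counts by gene symbol do not separate the isoforms of NEAT1. MALAT1 lies in nuclear speckles, where splicing factors of the SR family are stored. GAS5 and SNHG1 carry small nucleolar RNAs (snoRNAs) in their introns, and their spliced exons are cleared by nonsense-mediated decay. MIR22HG and MIR205HG are host genes of the microRNAs miR-22 and miR-205. PVT1 lies beside the oncogene MYC, and PVT1, LINC-PINT and TP53TG1 have been described as responsive to p53, the transcription factor activated by DNA damage. The libraries were made from poly(A)-selected RNA. The long NEAT1 isoform and MALAT1 end in a structured tail without a normal poly(A) tail, so the values reflect the molecules that this selection captured.

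The microRNAs that the host genes give rise to are shown because 2 of the 9 genes are named for them; the capitals mark the seed, bases 2 to 8, by which a microRNA recognises its targets. Sequences are from RefSeq (GRCh38.p14), written 5′ to 3′.
hsa-miR-22-3p: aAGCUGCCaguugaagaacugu
hsa-miR-205-5p: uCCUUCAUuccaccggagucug
The first lies at chr17:1713914-1713935 on the minus strand, inside exons of MIR22HG in GENCODE 29. The second lies at chr1:209432166-209432187 on the plus strand, within the RefSeq span of MIR205HG, and no exon of MIR205HG in GENCODE 29 holds it whole. The seeds, AGCUGCC and CCUUCAU, are unlike each other. Mature microRNAs were not measured in these libraries, and only the host transcripts are reported.

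Promoter sequences are shown for the pair of genes whose transcripts were nearly or wholly missing from HCT116, MIR205HG and TP53TG1, with each CG dinucleotide in capitals. TP53TG1 starts 172 bases from CROT, a gene for a peroxisomal carnitine acyltransferase that runs the other way, and the bases between the starts are given on the strand of TP53TG1 (chr7:87345493-87345663, minus strand). For MIR205HG the window runs from 250 bases before the start to 50 after it (chr1:209428570-209428869, plus strand).
TP53TG1 to CROT: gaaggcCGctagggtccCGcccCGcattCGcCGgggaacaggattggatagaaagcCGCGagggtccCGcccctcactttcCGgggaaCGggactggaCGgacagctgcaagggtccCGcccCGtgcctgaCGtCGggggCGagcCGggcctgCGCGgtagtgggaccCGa
MIR205HG: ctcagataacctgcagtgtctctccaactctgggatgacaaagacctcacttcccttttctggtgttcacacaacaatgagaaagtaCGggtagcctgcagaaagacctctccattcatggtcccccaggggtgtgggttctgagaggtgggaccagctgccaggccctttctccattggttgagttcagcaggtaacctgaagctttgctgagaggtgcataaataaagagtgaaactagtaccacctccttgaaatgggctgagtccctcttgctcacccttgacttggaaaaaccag
The 171 bases between TP53TG1 and CROT hold 20 CG dinucleotides. Over the full window of 300 bases TP53TG1 has 29, more than 75.8% of 35116 RefSeq promoters, and MIR205HG has 1, more than 3.96% of them; the median promoter has 14. The p53 half-site consensus was found in 0 of 11 promoter windows of 7 of the 9 genes, against 6.63% of all promoters, which says only that those letters are not in these short windows. DNA methylation was not measured.

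Library totals ran from 25.7 M to 40.8 M counts. Among table values from 1 to 10 a share of 68.3% were even, so many counts may come in pairs, and halved counts were tried as an alternative. The basal epithelial marker list (10 genes, including KRT5, KRT14 and TP63) summed to between 11903 and 13001 CPM in MCF10A NIR and to between 510.0 and 566 CPM in HCT116 NIR, where TP63 and TGFBI had no counts. The intestinal list (8 genes) summed to between 12.3 and 13.1 CPM in HCT116 NIR, with CDX1 and ASCL2 at 0, and to at most 0.239 CPM in MCF10A NIR. After 10 Gy the summed basal list rose within both lines. It reached between 19994 and 20146 CPM in MCF10A and between 979 and 1166 CPM in HCT116. In HCT116 most of the sum came from ITGB4, at a mean of 477 CPM without and 978 CPM with irradiation. Of the 7 genes of the list tested in HCT116 6 rose, beside 25.3% of all genes. In MCF10A 8 of the 10 rose, beside 26.2% of all genes. Whether the rise of the basal list bears on the results below was not tested. CDKN1A, the p21 inhibitor of cyclin-dependent kinases, rose by 1.76 in MCF10A and by 2.33 in HCT116 on the log2 scale (edgeR adjusted p = 1.1e-21 and 5.0e-17).

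The first question was how each line's lncRNAs changed after 10 Gy. In MCF10A 8 of the 9 lncRNAs passed the test, 6 higher and 2 lower; over all genes tested 55.4% passed, 26.2% higher and 29.2% lower. In HCT116 7 of the 9 had enough counts to be tested, and 4 passed, 3 higher and 1 lower, against 52.5% of all genes, 25.3% higher and 27.2% lower. MIR205HG and TP53TG1 were the ones left untested there. In the test of the difference of responses, HCT116 minus MCF10A, 5 of the 9 lncRNAs passed, 2 higher and 3 lower, against 37.3% of all genes, 15.4% higher and 21.9% lower. MIR205HG and TP53TG1 entered that test only through their MCF10A libraries and had too few HCT116 counts to show a difference. The 5 were thus among the 7 tested in HCT116. MALAT1, PVT1 and MIR22HG rose and SNHG1 fell in both lines. NEAT1 and LINC-PINT rose in MCF10A and did not pass the test in HCT116. "Passed" means an adjusted p under 0.05 in edgeR's quasi-likelihood test with Benjamini-Hochberg adjustment over all genes tested, and fold changes are log2 values on library sizes scaled by TMM. The difference of responses was fitted over 4 groups, and its median over all genes was −0.10. The medians of the MCF10A and HCT116 responses were 0.003 and 0.007. With scaling that left out mitochondrial and the most abundant genes the median difference was −0.005. The differences given below were not corrected for this and need not equal the gap between the fitted changes.

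**Figure D1:**
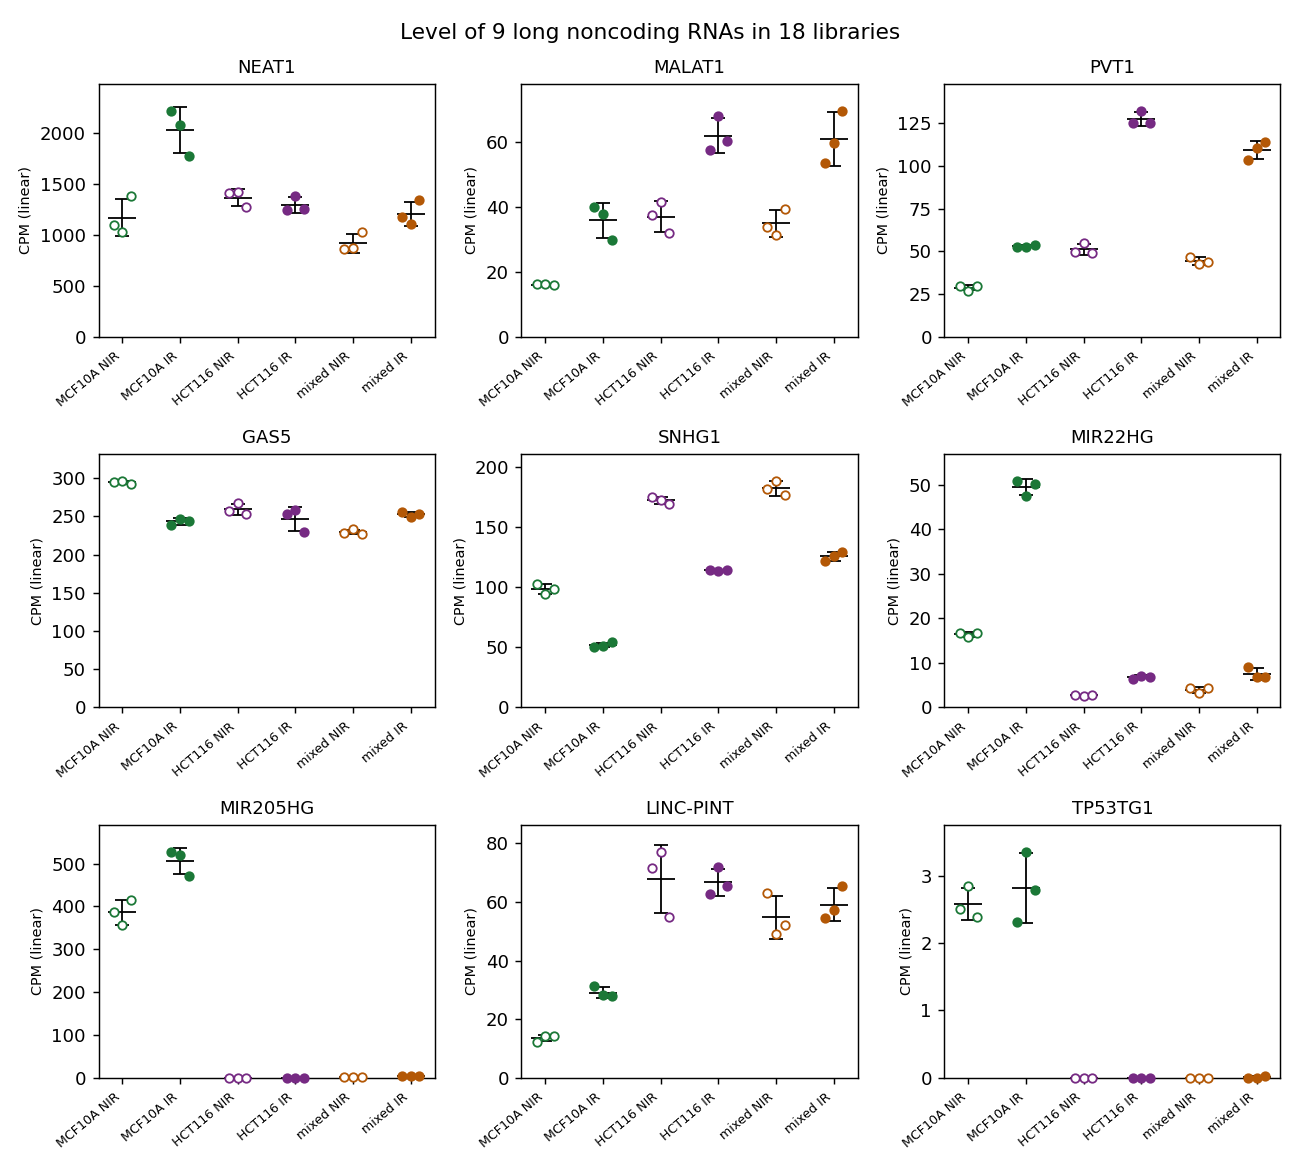
Level of each lncRNA in CPM (linear axes, starting at 0) in the 3 libraries of each of the 6 groups; open points are NIR, filled points IR, and bars show the mean with 1 SD. MALAT1, PVT1 and MIR22HG are higher after irradiation in every kind of culture without overlap, SNHG1 is lower, and MIR205HG and TP53TG1 are near 0 outside MCF10A.

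NEAT1 (chr11:65422798-65445540) was read at 1096, 1029 and 1377 CPM in the 3 MCF10A NIR libraries and at 2214, 2076 and 1774 CPM in the irradiated ones. The groups did not overlap, and the lowest irradiated library stood well above the highest control. The fitted log2 change was 0.77 (SE 0.069, n = 3 against 3, edgeR adjusted p = 1.8e-10). In HCT116 the NIR libraries held 1411, 1414 and 1267 CPM and the IR libraries 1242, 1379 and 1256 CPM, so the ranges overlapped, and the change was −0.07 (SE 0.057, edgeR adjusted p = 0.32). The difference between the responses, HCT116 minus MCF10A, was −0.92 (SE 0.111, edgeR adjusted p = 3.2e-07).

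Transcripts of genes for paraspeckle proteins fell in MCF10A, where NEAT1 rose. Of 12 such genes, all tested, 12 fell in MCF10A, with a median log2 change of −0.59, where the median over all genes tested was 0.003. HNRNPH3, a splicing regulator found in paraspeckles, went from 177 ± 5.90 to 91.6 ± 0.797 CPM (SD, n = 3), a log2 change of −0.97. In HCT116 10 of the 12 fell, with a median of −0.44, although NEAT1 itself did not pass the test there. DAZAP1, an RNA-binding protein, fell from 183 ± 7.28 to 98.8 ± 4.07 CPM, and HNRNPA1, an abundant regulator of splicing, from 2200.0 ± 199.6 to 1249 ± 33.1 CPM. These genes were not tested as a set; 29.2% of all genes fell in MCF10A and 27.2% in HCT116.

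MALAT1 (chr11:65497738-65506516) held 16.1, 16.1 and 15.9 CPM in MCF10A NIR and 39.8, 37.8 and 29.8 CPM in MCF10A IR. In HCT116 it held 37.3, 41.4 and 31.8 CPM without irradiation and 57.4, 67.8 and 60.2 CPM after it. Irradiated libraries were above all controls in both lines, and the control HCT116 libraries overlapped the irradiated MCF10A ones. The log2 change was 1.13 (SE 0.096, edgeR adjusted p = 6.2e-11) in MCF10A and 0.75 (SE 0.089, edgeR adjusted p = 1.7e-07) in HCT116. The response was smaller in HCT116 by −0.45 (SE 0.142, edgeR adjusted p = 0.013), in a test whose median over all genes was −0.10. That call was lost without MCF10A IR replicate 1 (−0.27), without MCF10A IR replicate 2 (−0.30) or without HCT116 NIR replicate 2 (−0.37), and with scaling that left out mitochondrial and the most abundant genes (−0.35, edgeR adjusted p = 0.054). The row of TALAM1, the antisense transcript of MALAT1, held 0 counts in all 18 libraries; whether the counting used strand is not given in the sources used here.

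Genes for nuclear speckle and SR proteins, all 13 tested, fell in MCF10A in 13 of 13 cases, with a median of −0.54, where 29.2% of all genes fell. SRSF3, a splicing factor of the SR family, went from 487 ± 22.1 to 253 ± 2.98 CPM and SRSF7, another, from 206 ± 4.69 to 109 ± 3.01 CPM. In HCT116 10 fell and 2 rose, with a median of −0.22, beside 27.2% and 25.3% of all genes. SRSF2, which marks speckles, fell there from 198 ± 16.8 to 105 ± 0.734 CPM. SON, a scaffold of speckles, rose from 305 ± 10.3 to 394 ± 4.83 CPM, and SRSF1 rose from 225 ± 19.5 to 256 ± 22.6 CPM. The count of 2 that rose was 1 without HCT116 NIR replicate 3, without HCT116 IR replicate 2 or without HCT116 IR replicate 3.

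**Figure D2:**
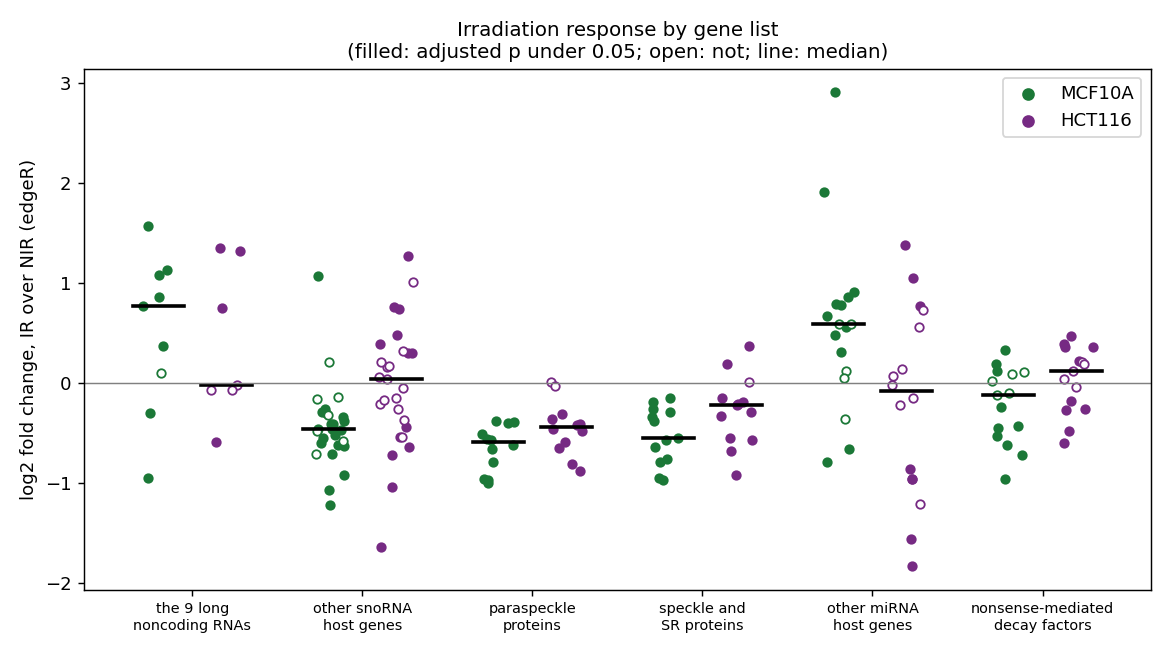
Log2 change after irradiation (vertical axis, edgeR) of each tested gene in 6 lists, in MCF10A and in HCT116; filled points passed the test at an adjusted p under 0.05, open points did not, and lines are medians. All tested paraspeckle and speckle genes lie below 0 in MCF10A, and the snoRNA host genes have a median of −0.46 in MCF10A and 0.04 in HCT116.

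SNHG1 (chr11:62851978-62855885), whose introns hold several C/D box snoRNAs, was read at 103, 94.0 and 98.7 CPM in MCF10A NIR and at 50.4, 51.1 and 54.1 CPM in MCF10A IR. In HCT116 the values were 175, 172 and 169 CPM before and 114, 113 and 114 CPM after irradiation. All irradiated libraries lay below all controls of the same line, and replicates of a group differed little. SNHG1 fell by 0.94 (SE 0.056, edgeR adjusted p = 2.9e-14) in MCF10A and by 0.59 (SE 0.057, edgeR adjusted p = 7.6e-09) in HCT116 on the log2 scale. The difference of responses was 0.28 (SE 0.074, edgeR adjusted p = 0.0039), a smaller fall in HCT116.

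GAS5 (chr1:173863901-173869045), named for its rise in growth-arrested cells, held 296, 296 and 292 CPM in MCF10A NIR and 239, 247 and 244 CPM in MCF10A IR. The groups did not overlap, and the change was −0.30 (SE 0.041, edgeR adjusted p = 4.3e-07), small beside that of SNHG1. In HCT116 the NIR libraries held 257, 268 and 253 CPM and the IR libraries 253, 258 and 229 CPM, which overlapped, with a change of −0.06 (SE 0.060, edgeR adjusted p = 0.40). The difference of responses, 0.16 (SE 0.071), missed the threshold with an edgeR adjusted p of 0.089. It passed, at between 0.18 and 0.28, under 5 of the other settings and without any of 5 single libraries, as listed in the closing section. GAS5 overlaps ZBTB37 and GAS5-AS1 on the opposite strand, and reads of overlapping genes cannot be assigned here. ZBTB37, a zinc-finger gene, fell in both lines, by 0.47 in MCF10A and by 0.26 in HCT116.

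Of 29 other snoRNA host genes 27 were tested in MCF10A, where 19 fell and 1 rose, with a median of −0.46; over all genes 29.2% fell and 26.2% rose. DANCR went from 49.7 ± 4.31 to 21.7 ± 2.99 CPM (log2 change −1.22) and SNHG3 from 111 ± 5.25 to 54.2 ± 2.68 CPM (−1.06). The gene that rose was SNHG14, from 88.5 ± 3.58 to 189 ± 4.48 CPM; it is the long transcript of the imprinted SNRPN region. In HCT116 27 were tested, 7 rose and 6 fell, with a median of 0.04, shares near those of all genes (25.3% higher and 27.2% lower). SNHG26 rose from 16.8 ± 0.173 to 40.3 ± 3.56 CPM and EPB41L4A-AS1 from 19.1 ± 1.56 to 32.3 ± 1.94 CPM, while SNHG19 fell from 19.1 ± 1.28 to 9.27 ± 0.715 CPM and SNHG5 from 10.6 ± 1.36 to 6.33 ± 1.24 CPM. In the test of the difference of responses 14 of 28 had a higher response in HCT116 and 2 a lower one, with a median of 0.40. Over all 18179 genes in that test 15.4% were higher and 21.9% lower, and the median was −0.10.

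Because spliced snoRNA host transcripts are cleared by nonsense-mediated decay, 15 factors of that pathway were read beside them. In MCF10A 3 rose and 7 fell, beside 26.2% and 29.2% of all genes. In HCT116 5 rose and 5 fell, beside 25.3% and 27.2% of all genes. In MCF10A the genes of the exon junction proteins MAGOHB and MAGOH changed by −0.95 and −0.72, and SMG6, the endonuclease of the pathway, by 0.33. In HCT116 UPF2, a core decay factor, changed by 0.47 and UPF3A by 0.39, while the exon junction helicase EIF4A3 changed by −0.48. In MCF10A 5 rose with upper-quartile scaling or without MCF10A IR replicate 2, and in HCT116 3 fell without HCT116 IR replicate 3.

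MIR22HG (chr17:1711504-1716210) showed the greatest log2 change of the 9 lncRNAs in MCF10A and, with PVT1, in HCT116. MCF10A NIR libraries held 16.8, 15.7 and 16.6 CPM and IR libraries 50.9, 47.6 and 50.3 CPM. HCT116 NIR libraries held 2.69, 2.64 and 2.75 CPM and IR libraries 6.46, 7.13 and 6.92 CPM. Every irradiated library was above the controls of its line, and the irradiated HCT116 libraries stayed below the MCF10A controls. The log2 change was 1.58 (SE 0.076, edgeR adjusted p = 3.7e-16) in MCF10A and 1.35 (SE 0.181, edgeR adjusted p = 1.3e-06) in HCT116. The difference of responses was −0.30 (SE 0.149, edgeR adjusted p = 0.12).

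Genes beside MIR22HG did not all change with it. TLCD2, a membrane lipid regulator on the same stretch of chromosome 17, rose in MCF10A from 6.34 ± 0.715 to 21.0 ± 2.99 CPM, a log2 change of 1.70, and changed by −0.18 (edgeR adjusted p = 0.43) in HCT116. WDR81, which overlaps MIR22HG on the opposite strand in GENCODE 29, changed by 0.20 (edgeR adjusted p = 0.076) in MCF10A and rose by 0.90 in HCT116. The responses of the pair differed between the lines by −1.97 for TLCD2 and by 0.63 for WDR81 (edgeR adjusted p = 3.7e-07 and 0.0018).

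MIR205HG (chr1:209428820-209432549), whose microRNA is typical of basal and squamous epithelium, was read at 387, 357 and 415 CPM in MCF10A NIR and at 528, 520.4 and 470.5 CPM in MCF10A IR. The irradiated libraries were all above the controls, with a log2 change of 0.37 (SE 0.048, edgeR adjusted p = 2.0e-07). In HCT116 it had 2 counts over the 3 NIR libraries and 2 over the 3 IR libraries. MCF10A was thus higher by a ratio of 18232 without irradiation, with a counting interval from 5047 to 150550 (95%, exact Poisson), and by 25160 after it, from 6965 to 207756. These intervals cover counting error only. In each state both HCT116 counts were in 1 library, and if counts come in pairs the intervals are too narrow.

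A pair of protein-coding genes near MIR205HG rose with it in MCF10A. LAMB3, a chain of the basement membrane protein laminin-332, rose from 1598 ± 24.2 to 3660 ± 37.7 CPM, a log2 change of 1.17. CAMK1G, a calcium-dependent kinase, rose from 3.19 ± 0.855 to 11.5 ± 2.33 CPM, a change of 1.84. In HCT116 LAMB3 also rose, from 41.9 ± 4.85 to 58.9 ± 7.39 CPM, while MIR205HG had 2 counts in either state.

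The other microRNA host genes numbered 20, of which 17 were tested in MCF10A: 10 rose and 2 fell, with a median of 0.59. Over all genes 26.2% rose and 29.2% fell there. In HCT116 16 were tested, 3 rose and 5 fell, with a median of −0.08, beside 25.3% and 27.2% of all genes. MIR34AHG, host of the p53-responsive miR-34a, rose in both lines. Its MCF10A level went from 10.6 ± 1.89 to 18.5 ± 1.13 CPM, and its HCT116 level from 8.38 ± 0.345 to 21.8 ± 0.905 CPM. MIR210HG, host of the hypoxia-linked miR-210, rose in MCF10A from 3.42 ± 0.301 to 6.53 ± 0.279 CPM and fell in HCT116 from 10.4 ± 1.09 to 2.92 ± 0.478 CPM. MIR100HG fell in HCT116 from 174 ± 15.6 to 58.9 ± 3.33 CPM, and MIR4435-2HG fell in MCF10A from 69.7 ± 2.87 to 44.9 ± 2.27 CPM. In the difference of responses 8 of 18 had a lower response in HCT116 and 2 a higher one, beside 21.9% and 15.4% of all genes. The count of 8 became 5 under 4 other settings and without any of 5 single libraries (MCF10A NIR replicate 2, MCF10A IR replicates 1 and 3, HCT116 NIR replicate 1 and HCT116 IR replicate 2).

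PVT1, on chromosome 8 beside MYC, held 29.6, 27.1 and 29.5 CPM in MCF10A NIR and 52.8, 52.8 and 53.7 CPM in MCF10A IR. In HCT116 it held 49.6, 54.9 and 48.9 CPM before and 125, 132 and 125 CPM after irradiation. The groups of each line were far apart, and control HCT116 libraries overlapped irradiated MCF10A ones. The log2 change was 0.87 (SE 0.068, edgeR adjusted p = 1.3e-11) in MCF10A and 1.33 (SE 0.066, edgeR adjusted p = 1.1e-13) in HCT116. PVT1 rose more in HCT116, by 0.38 (SE 0.089, edgeR adjusted p = 0.0013). MYC itself fell in MCF10A, from 366 ± 9.39 to 311 ± 3.13 CPM (log2 change −0.26), and rose in HCT116, from 262 ± 8.19 to 409 ± 7.43 CPM (0.65), with a difference of responses of 0.83.

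LINC-PINT (chr7:130877562-131109925), described as a repressor of proliferation, was read at 12.3, 14.1 and 14.2 CPM in MCF10A NIR and at 31.2, 28.3 and 27.8 CPM in MCF10A IR. The change was 1.08 (SE 0.094, edgeR adjusted p = 9.8e-11). In HCT116 the NIR libraries held 71.5, 77.2 and 54.8 CPM and the IR libraries 62.8, 71.8 and 65.4 CPM. HCT116 was above both MCF10A groups in every library, and its ranges before and after irradiation overlapped, with a change of −0.02 (SE 0.091, edgeR adjusted p = 0.90). The difference of responses was −1.17 (SE 0.138, edgeR adjusted p = 2.0e-07), beside that of NEAT1 the greatest in size among the 7 lncRNAs well counted in both lines. MKLN1, the neighbouring coding gene, changed by −0.05 in MCF10A and by −0.14 in HCT116 (edgeR adjusted p = 0.42 and 0.064). LINC-PINT also spans the rows of MIR29A and MIR29B1 on its own strand in GENCODE 29, and LINC00513 on the other.

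TP53TG1 (chr7:87325347-87345492), first named as a p53 target, was the least counted of the 9 genes in MCF10A. It held 2.50, 2.85 and 2.39 CPM in the NIR and 2.31, 3.36 and 2.79 CPM in the IR libraries, which overlapped, and the change was 0.11 (SE 0.239, edgeR adjusted p = 0.73). In HCT116 it had 0 counts in all 6 libraries. Against a floor of 3 counts over a group, its level was at least 81.1-fold lower in HCT116 NIR and at least 93.5-fold lower in HCT116 IR than in MCF10A, or 40.6- and 46.7-fold if the counts come in pairs. CROT, which shares 271 bases of its promoter window with that of TP53TG1, had the same line pattern: 28.3 to 30.7 CPM in MCF10A NIR, 35.5 to 40.4 CPM in MCF10A IR and 0 counts in HCT116 NIR. After 10 Gy CROT had counts in all 3 HCT116 libraries, at 0.366 to 0.894 CPM (50 counts in all), while TP53TG1 remained at 0.

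Other noncoding RNAs described as p53-responsive were read as a list of 9 symbols, of which 7 had rows. The list holds PURPL under another symbol as well, so its symbols are not all different genes. In MCF10A 3 were tested and 2 rose, and in HCT116 4 were tested and 3 rose, beside 26.2% and 25.3% of all genes. PURPL, a repressor of p53 activity, rose in both lines, in MCF10A from 1.17 ± 0.609 to 5.54 ± 0.725 CPM, in HCT116 from 10.5 ± 0.984 to 68.9 ± 4.70 CPM. PINCR rose in HCT116 from 0.909 ± 0.359 to 13.5 ± 1.27 CPM. MIR34AHG, given above, belongs to this list too. FRMD8, next to NEAT1 and a partner of the sheddase regulator iRhom, rose by 0.72 in MCF10A and by 1.35 in HCT116, and SLC3A2, beside SNHG1 and a subunit of amino acid transporters, fell by 0.38 in MCF10A and changed by 0.09 (edgeR adjusted p = 0.29) in HCT116.

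**Figure D3:**
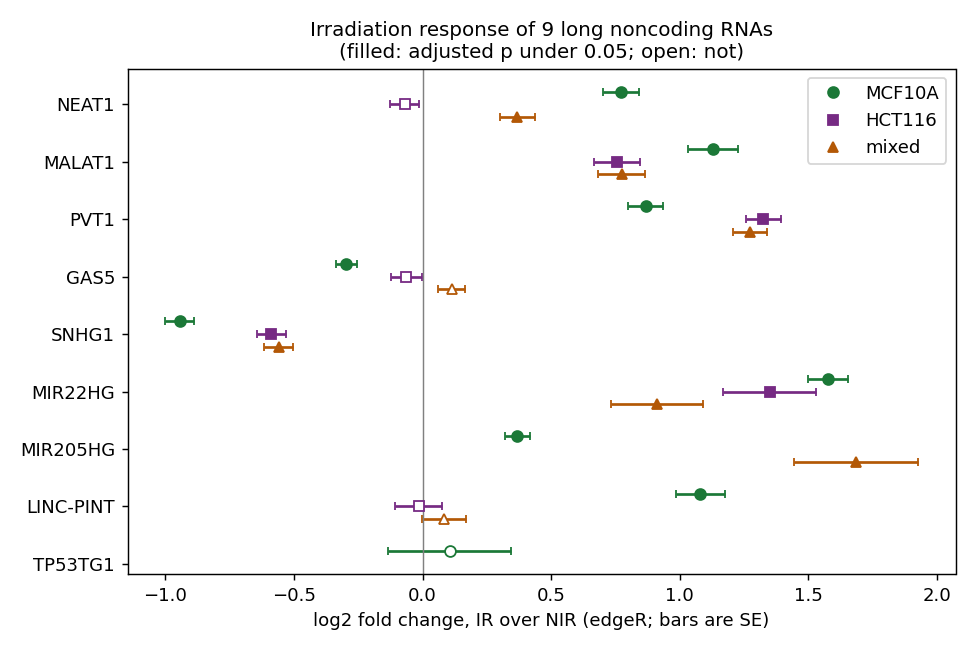
Log2 change after irradiation of the lncRNAs (horizontal axis, edgeR, bars are 1 SE) in MCF10A, HCT116 and mixed cultures; filled symbols passed the test, and an absent symbol means too few counts to test. LINC-PINT and NEAT1 are apart in MCF10A and HCT116, and SNHG1 lies below 0 in all 3 kinds of culture.

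The second question was how the lines differed at each state. Without irradiation 8 of the 9 lncRNAs differed between HCT116 and MCF10A, 4 higher and 4 lower in HCT116; of all genes tested 74.8% differed, 38.7% higher and 36.1% lower. After irradiation 9 of 9 differed, 4 higher and 5 lower, against 74.9% of all genes, 38.1% higher and 36.8% lower. MIR205HG and TP53TG1 could enter these tests only through their MCF10A libraries, so their calls add nothing to the levels above. MALAT1 was higher in HCT116 by 1.00 without and 0.57 with irradiation, PVT1 by 0.64 and 1.03, SNHG1 by 0.61 and 0.90, and LINC-PINT by 2.13 and 0.97 on the log2 scale. MIR22HG was lower in HCT116 by −2.80 and −3.09.

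NEAT1 differed by 0.03 (edgeR adjusted p = 0.77) without irradiation and was lower in HCT116 by −0.87 (edgeR adjusted p = 5.3e-13) after it. The first value passed the test with upper-quartile scaling (0.23, edgeR adjusted p = 0.015) and with library size alone (0.23, edgeR adjusted p = 0.017). GAS5 was lower in HCT116 by −0.38 without irradiation and by −0.21 after it, and the latter turned to 0.02 (edgeR adjusted p = 0.73) with library size alone as the scale. Both scalings moved the median of all genes from 0.05 to 0.25 without irradiation. With the first, the share of called genes that were higher in HCT116 went from 51.8 to 62.4%. The differences of MIR22HG, LINC-PINT, MALAT1, PVT1 and SNHG1 kept their direction and passed the test under each scaling in both states.

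The order of the 6 groups differed from gene to gene. For NEAT1 mixed NIR was lowest (917 ± 92.3 CPM) and MCF10A IR highest (2021 ± 225 CPM), and the 4 groups between, from MCF10A NIR through mixed IR and HCT116 IR to HCT116 NIR, overlapped each with the next. For MALAT1 MCF10A NIR was lowest (16.1 ± 0.123 CPM), then mixed NIR, MCF10A IR and HCT116 NIR overlapped between 34.9 and 36.8 CPM, and mixed IR and HCT116 IR overlapped at 60.8 and 61.8 CPM. For PVT1 only HCT116 NIR and MCF10A IR overlapped. SNHG1 had no overlapping neighbours, from MCF10A IR (51.9 ± 1.96 CPM) through MCF10A NIR, HCT116 IR, mixed IR and HCT116 NIR to mixed NIR (182 ± 5.87 CPM). GAS5 spanned a narrow range, from 230 ± 3.00 CPM in mixed NIR to 295 ± 2.06 CPM in MCF10A NIR. MIR22HG ran from HCT116 NIR (2.69 ± 0.0551 CPM) to MCF10A IR (49.6 ± 1.75 CPM), and only HCT116 IR and mixed IR overlapped. LINC-PINT was lowest in the MCF10A groups, and its 4 HCT116 and mixed groups, at 54.8 to 67.8 CPM, overlapped each with the next.

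The third question was what the cultures started from both lines showed. In bulk RNA fewer cells of a line and less RNA per cell cannot be told apart. MIR205HG, nearly absent from HCT116, held 1.29, 1.18 and 1.501 CPM in mixed NIR and 3.43, 4.46 and 5.16 CPM in mixed IR. That was 0.343% ± 0.0420 (SD, n = 3) of its level in MCF10A alone without irradiation and 0.860% ± 0.172 after it. Other genes specific to MCF10A (at least 20 CPM there and under 1 CPM in every HCT116 library) had a median share of 0.429% ± 0.0448 over 143 genes without irradiation and of 1.22% ± 0.0717 over 142 genes after it. The quartiles of those genes were 0.193 and 0.998% without irradiation and 0.541 and 2.35% after it, a range that includes MIR205HG in both states. The series text gives 50% of each line at the start, and both shares are far below it.

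**Figure D4:**
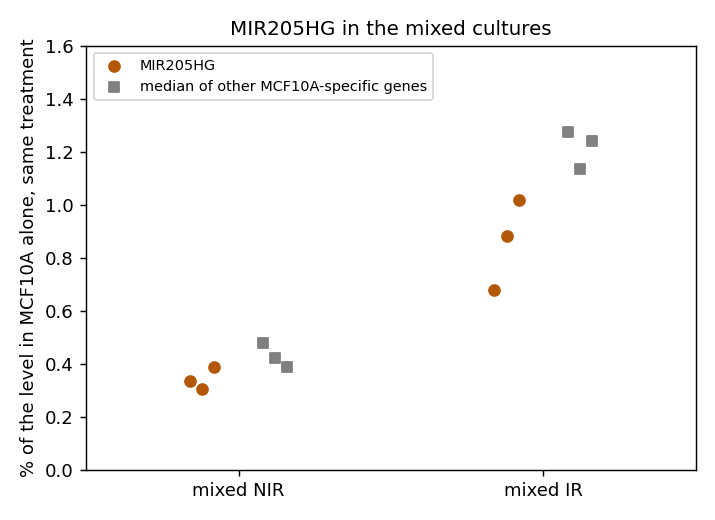
MIR205HG level in each of the 3 mixed libraries per state as a percentage of its mean in MCF10A alone under the same treatment (vertical axis), beside the median of other genes specific to MCF10A. MIR205HG lies between 0.306 and 0.388% without irradiation and between 0.677 and 1.02% after it.

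Of the 8 lncRNAs tested in the mixed cultures 6 passed the test of irradiation, 5 higher and 1 lower, against 49.4% of all genes, 24.0% higher and 25.4% lower. MALAT1 rose by 0.77, PVT1 by 1.27, MIR22HG by 0.91, NEAT1 by 0.37 (SE 0.069, edgeR adjusted p = 1.3e-04) and MIR205HG by 1.69 (SE 0.241), and SNHG1 fell by 0.56. The median share of the other genes specific to MCF10A also rose, from 0.429 to 1.22%. A response of MIR205HG therefore cannot be told apart here from a larger share of MCF10A RNA. LINC-PINT changed by 0.08 (edgeR adjusted p = 0.44) and GAS5 by 0.11 (edgeR adjusted p = 0.077). GAS5 held 228, 233 and 227 CPM in mixed NIR and 256, 249 and 253 CPM in mixed IR, groups that did not overlap, and its change passed the test with upper-quartile scaling (0.15, edgeR adjusted p = 0.021), with library size alone (0.14, edgeR adjusted p = 0.030) and in the fit of all 18 libraries (0.15, edgeR adjusted p = 0.011). TP53TG1 had 0 counts in mixed NIR and 1 in mixed IR.

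Against HCT116 alone few genes differed, and few of the lncRNAs. Growth beside MCF10A and a change of medium cannot be told apart in these differences, because the mixed cultures' medium is unknown. Without irradiation 2 of 8 passed, 1 in each direction, against 2.04% of all genes, 0.887% higher and 1.15% lower in the mixed cultures: NEAT1 was lower in the mixed cultures by −0.56 (SE 0.070, edgeR adjusted p = 1.2e-04), and MIR205HG was higher. MIR205HG entered the tests against HCT116, in both states, only through its mixed libraries, so its calls add nothing to the levels above. Mixed NIR libraries held NEAT1 at 857, 871 and 1023 CPM, all below the lowest HCT116 NIR library at 1267 CPM. The lowest MCF10A NIR library held 1029 CPM, just above the highest mixed one, and that difference was not tested. After irradiation 2 of 8 passed, again 1 in each direction, against 8.56% of all genes, 5.08% higher and 3.48% lower: PVT1 was lower by −0.23 (SE 0.056, edgeR adjusted p = 0.0072), and MIR205HG was higher. Mixed IR libraries held PVT1 at 104, 110.5 and 114 CPM, below the 125 to 132 CPM of HCT116 IR, but without HCT116 IR replicate 2 the call was lost (−0.20, edgeR adjusted p = 0.053).

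The irradiation responses of the mixed cultures and of HCT116 were compared directly. Of 8 lncRNAs 1 passed, against 0.830% of all genes, 0.681% with a greater value in the mixed cultures. This was NEAT1, whose response was greater in the mixed cultures by 0.45 (SE 0.094, edgeR adjusted p = 0.016), with 1172, 1109 and 1336 CPM in mixed IR. Leaving out single libraries ended that call in 7 of 12 fits: HCT116 NIR replicate 1 or 2, HCT116 IR replicate 1 or 3, mixed NIR replicate 1 or 2, or mixed IR replicate 3, with values from 0.35 to 0.40. This comparison shares its HCT116 and mixed libraries with those above and adds no separate evidence on the level of NEAT1. MIR205HG entered this comparison only through its mixed libraries and had too few HCT116 counts to show a difference.

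Across all 18 libraries the genes whose levels were most like each lncRNA were named by the highest Pearson correlation of log2(CPM + 1), among 11311 genes with a mean of at least 5 CPM. The 18 points share their lines and treatments, so these values describe the 6 groups and carry no test. NEAT1 was most like TSC22D2 (r = 0.90) and PLEKHM3, and GAS5 most like MBD3 (0.87) and LRP8. MALAT1 was most like GPATCH2L (0.97), OTUB2 and TVP23C, PVT1 like DNAI3 (0.99), ACER2 and TP53INP1, and SNHG1 like CDT1 (0.99), E2F2 and TRIM28. MIR22HG was most like ANXA2 (0.99), LIMK2 and PTTG1IP, and LINC-PINT like HLA-B (0.98), ZFAND5 and CXADR. MIR205HG was most like XIST, ROS1 and TP63 (0.998 for the last named), and TP53TG1 like S100A9 (0.997), S100A8 and CBR1. With Spearman's rho in place of Pearson's r, 0 or 1 of each set of 3 names was the same.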

How the data were processed

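RNA from 18 cultures was poly(A)-selected and sequenced as paired reads, with libraries from an Illumina stranded mRNA kit per the labels. The authors deposited 1 table of raw read counts per sample by gene symbol; fastp, STAR and featureCounts and the build GRCh38 are named in the submitters' processing notes, without versions, and the annotation and the use of strand in counting are not given in the sources used here. Groups were taken from the sample titles. CPM was computed on library totals. Each comparison was fitted over all genes in edgeR 4.0.16 (R 4.3.3): filterByExpr, TMM factors, glmQLFit and glmQLFTest, 2-sided, Benjamini-Hochberg adjustment, only with the groups compared; response differences were interaction contrasts over 4 groups. The SE is the log2 change divided by the square root of F. The edgeR test was checked on simulated data for the MCF10A response, the HCT116 response and their difference. The other comparisons and DESeq2 were not checked in this way. Few genes were changed in the simulated data, as many up as down. Scaling under changes as broad as those seen here was therefore not checked. The replicates are described as biological; p-values measure only their spread. Alternatives were DESeq2 1.42.0, upper-quartile factors, library size alone, scaling without mitochondrial genes and the 10 most abundant others, no filter, halved counts, 1 fit over all 18 libraries, a replicate block, and leaving out each library. Replicate numbers were not used as pairs in the main fits (correlations of deviations from −0.043 to 0.109 over 15 pairs of groups). The correlations were highest between HCT116 NIR and mixed NIR (mean 0.057), and whether the numbers pair those samples is not settled. Named genes were all 9 lncRNAs, up to 2 called genes per direction with the greatest change and at least 5 CPM from each list in the MCF10A and HCT116 responses, genes at the lncRNAs' loci, CDKN1A, and the 3 most like genes; a few genes that this rule names are not reported here. The lncRNAs and lists were chosen with earlier results of these data known. Gene positions and promoter, microRNA and overlap data are from RefSeq (GRCh38.p14) and GENCODE 29; all 9 symbols matched a RefSeq locus and 7 a promoter entry that was searched.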

Additional observations from a re-analysis of the deposited data

Results flagged for a closer look

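In 6 cases a test of the difference between the responses of 2 kinds of culture to 10 Gy passed the threshold. It was edgeR's quasi-likelihood test of the interaction, with Benjamini-Hochberg adjustment and 3 libraries in each of 4 groups. Over all genes tested 37.3% passed between HCT116 and MCF10A, and 0.830% between mixed cultures and HCT116. Between HCT116 and MCF10A the response of LINC-PINT differed by −1.17 (SE 0.138, adjusted p = 2.0e-07), that of NEAT1 by −0.92 (SE 0.111, adjusted p = 3.2e-07) and that of MALAT1 by −0.45 (SE 0.142, adjusted p = 0.013), each smaller in HCT116. The response of PVT1 differed by 0.38 (SE 0.089, adjusted p = 0.0013), a greater rise in HCT116, and that of SNHG1 by 0.28 (SE 0.074, adjusted p = 0.0039), a smaller fall in HCT116. All genes in that test had a median of −0.10, and of −0.005 with scaling without mitochondrial and top genes. Between mixed cultures and HCT116 the response of NEAT1 differed by 0.45 (SE 0.094, adjusted p = 0.016), greater in the mixed cultures. That call was lost in 7 of 12 fits that left out 1 library and in the fit of all 18 libraries. The MALAT1 call was lost in 3 of 12 such fits and in the fit of all 18 libraries. It was also lost with scaling without mitochondrial and top genes. Groups of 3 libraries were too small for a check of single outlying samples.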

How the results depend on the processing

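Among values of single lncRNAs under alternative settings, 1085 kept their direction and their side of the threshold, 27 changed direction, 25 passed the threshold anew and 15 lost it. Calls were lost or reversed as follows, and the cause was not tested. The GAS5 difference between the lines after irradiation was 0.019 with library size alone and −0.028 with upper-quartile factors (edgeR adjusted p = 0.73 and 0.63). The MALAT1 difference of responses between the lines was −0.35 with scaling without mitochondrial and top genes and −0.35 in the fit of all 18 libraries (edgeR adjusted p = 0.054 and 0.068). The NEAT1 difference of responses between mixed cultures and HCT116 was 0.46 in the fit of all 18 libraries (edgeR adjusted p = 0.053), which left 0 lncRNAs called. The GAS5 difference of responses between the lines passed with DESeq2 (0.18), library size alone (0.20), scaling without mitochondrial and top genes (0.26), no filter (0.26) and all 18 libraries (0.25), and without MCF10A IR replicate 1, 2 or 3 or HCT116 IR replicate 2 or 3 (0.21 to 0.28).

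Genes called between mixed and HCT116 cultures numbered 335 without irradiation and became 576 with DESeq2, 671 without the filter, 768 with all 18 libraries and 716 with a replicate block. After irradiation 1467 became 2220 with a replicate block, under which 5 lncRNAs were called in place of 2. For the difference of those responses 150 became 327 with DESeq2 and 336 without the filter. With the replicate block NEAT1 (−0.11), SNHG1 (0.13) and LINC-PINT (−0.19) passed after irradiation and LINC-PINT (−0.29) before it. The block changed no other call of a lncRNA, and whether the replicate numbers pair these samples is not settled. Halved counts changed no call of a lncRNA. Leaving out 1 library gave 145 to 313 genes without irradiation with 2 to 3 lncRNAs, 866 to 1312 after it with 1 to 3, and 64 to 197 for the difference with 0 to 1.

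Values not past the threshold changed sign when 1 library was left out: TP53TG1 (−0.041 to 0.23) in MCF10A, LINC-PINT (−0.14 to 0.083) in HCT116, and, between the lines, MIR205HG (−3.04 to 2.08) and TP53TG1 (−0.26 to 0.048) for the response. NEAT1 between the lines without irradiation ranged from −0.069 to 0.14, and passed without MCF10A NIR replicate 3. Between mixed cultures and HCT116 these were MALAT1 (−0.16 to 0.027) without irradiation, MALAT1 (−0.14 to 0.045), GAS5 (−0.028 to 0.061) and MIR22HG (−0.030 to 0.20) after it, and MALAT1 (−0.097 to 0.10), SNHG1 (−0.0061 to 0.045), MIR205HG (−1.01 to 4.43) and LINC-PINT (−0.014 to 0.21) for the response. Upper-quartile factors moved the share of called genes that rose in MCF10A from 47.4 to 57.5%, and scaling without mitochondrial and top genes moved the share higher in HCT116 for the difference of responses from 41.3 to 52.6%; the share for mixed minus HCT116 went from 82 to 61.5% with DESeq2.

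Depth limits MIR205HG and TP53TG1 in HCT116, where 2 and 0 counts were read, and the fitted changes of these genes against HCT116 depend on the prior count and are not given as sizes. CPM on TMM-scaled library sizes was also computed; it moved levels by less than 1.5 times, in part by over 1 SD.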
